A study of Mus musculus with 6 samples.

Results

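The miR-130 and miR-301 seed family was examined in C2C12, a line of mouse myoblasts able to divide or to fuse into muscle fibres. Its members were taken by name: mmu-miR-130a-3p, mmu-miR-130b-3p, mmu-miR-301a-3p and mmu-miR-301b-3p, written below without the species prefix. All 4 had a row among the 1065 miRNA names of the deposited table. Small RNA had been sequenced in 6 libraries, 3 of control C2C12 cells and 3 of C2C12 cells given TGF-beta, a cytokine that drives fibrosis and holds back muscle differentiation. The series asks which miRNAs of stimulated myoblasts bear on fibrosis of skeletal muscle. The labels state no dose, duration or isoform of TGF-beta, and nothing in them ties the replicates to separate cultures, so every p-value reflects only the spread among these libraries, which may be technical.

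A miRNA is cut from a hairpin RNA whose 5p and 3p arms can each become a mature strand. The strand that is kept finds its target messages mainly through its seed, bases 2 to 8. Members of the miR-130 and miR-301 family share a seed, so they are taken to reach overlapping targets. In other mouse and human tissues the family has been tied to fibrosis and to repression of the lipid regulator Pparg and receptors of TGF-beta, and the 3p arm is usually the strand that is kept. Messages and proteins were not measured here, so nothing below bears on target levels.

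The mature sequences are shown because the seed defines the family and because both arms of the hairpins gave reads. They come from RefSeq on GRCm38.p6, and the seed stands in capitals. RefSeq entries were found for 3 of the 4 members and for all 4 of the 5p arms; miR-301b-3p is named only.
miR-130a-3p: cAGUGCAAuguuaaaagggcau
miR-130b-3p: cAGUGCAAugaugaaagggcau
miR-301a-3p: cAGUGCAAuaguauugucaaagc
miR-130a-5p: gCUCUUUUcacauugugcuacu
miR-130b-5p: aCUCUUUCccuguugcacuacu
miR-301a-5p: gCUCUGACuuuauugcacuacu
miR-301b-5p: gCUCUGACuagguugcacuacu
The 3 members have the seed AGUGCAA. miR-130a-3p and miR-130b-3p are equal at 20 of 22 positions counted from the 5′ end, while miR-130a-3p and miR-301a-3p are equal at 12 of 22. On the 5p side miR-301a-5p and miR-301b-5p share the seed CUCUGAC, and the 5p arms of miR-130a and miR-130b have other seeds. The letters UUGCACU, the reverse complement of the family seed, occur in the 5p arms of miR-130b, miR-301a and miR-301b and not in miR-130a-5p. How the authors assigned reads that could come from more than 1 of these sequences was not stated in the sources used here.

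The hairpins lie at 3 places. Mir130a lies at chr2:84741115-84741178 on the minus strand of GRCm38, between genes and not inside any other annotated gene of GENCODE M21. Mir301, the hairpin of miR-301a, lies at chr11:87113004-87113089 on the plus strand, inside Ska2, a gene for a protein of the kinetochore, in an intron of the same strand. Mir130b at chr16:17124061-17124142 and Mir301b at chr16:17124400-17124496, both on the minus strand, are 258 bp apart in an intron of 2610318N02Rik. The neighbouring hairpins are shown with the seed in capitals, since both hold AGUGCAA exactly 1 time although their reads differed in number.
Mir130b: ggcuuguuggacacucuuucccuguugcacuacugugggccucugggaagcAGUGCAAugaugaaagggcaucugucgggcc
Mir301b: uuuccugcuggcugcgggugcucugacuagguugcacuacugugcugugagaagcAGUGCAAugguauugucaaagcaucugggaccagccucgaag

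Each library had between 9015669 and 9813063 miRNA reads. A read was worth 0.102 to 0.111 RPM (reads per 1000000 miRNA reads, with no correction for length) and a count of 0 leaves room for 3 reads, or 0.306 to 0.333 RPM. TGF-beta replicate 3 stood slightly apart, with a mean correlation across names of 0.994 to its group against 0.995 to 0.997 for the others. The labelled cell type was checked by 5 skeletal muscle miRNAs. Their sum, most of it miR-206-3p, was 134804 to 154422 RPM in control and 101338 to 102533 RPM in treated libraries. By limma 3 of 5 were lower with TGF-beta, beside 16 of 418 tested names (3.83%), while miR-133a-3p and miR-133b-3p did not pass. Because the extraction text of the labels speaks of retinas, 6 retina miRNAs were looked up, and 5 had a row. The sum of these 5 was 6244 to 7257 RPM in control and 5118 to 7492 RPM in treated libraries. None of the 3 tested passed limma, beside 33 of 418 tested names (7.89%). Most of that sum was miR-182-5p and miR-183-5p, with control means of 3974 and 2770 RPM, and miR-96-5p had 80.6 RPM. The rest of the list was near or at absence. miR-204-5p and miR-211-5p gave 10 and 4 reads over all libraries, and miR-124-3p had no row. Markers of blood (4 of 5 listed, 1.94 to 2.55 RPM in control and 2.01 to 4.88 RPM in treated libraries), endothelium (2 of 2, 12.8 to 25.02 and 12.9 to 15.2 RPM), liver (1 of 1, 0.863 to 1.60 and 0.998 to 1.48 RPM) and epithelium (5 of 5, 2.55 to 3.73 and 1.80 to 2.66 RPM) were low. The sum of the muscle list was lower with TGF-beta, and the part of this change in the results below was not tested.

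The family was scarce. The 4 members together gave 208, 195 and 179 reads in control replicates 1, 2 and 3 and 157, 212 and 169 reads in TGF-beta replicates 1, 2 and 3. That was 20.4 ± 1.17 RPM in control and 19.3 ± 2.83 RPM after treatment (mean ± SD, n = 3 each), or 0.00169% to 0.00224% of the miRNA reads of a library. The treated libraries lay on both sides of the control libraries. No test was made of the sum, because its members were chosen with results known.

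mmu-miR-130a-3p, described in mouse and human cells as a regulator of vessel growth and of fat cell formation, carried most of the family's reads. It ranked 214 of 1065 names by mean level. Its level was 18.6, 18.7 and 17.0 RPM in control replicates 1, 2 and 3. In TGF-beta replicates 1, 2 and 3 it was 15.5, 17.9 and 15.5 RPM. The groups overlapped through TGF-beta replicate 2, which lay inside the control range, while the other treated libraries lay below it. The means were 18.1 ± 0.98 and 16.3 ± 1.38 RPM (mean ± SD, n = 3 each). The log2 fold change on the log2(RPM + 1) scale was −0.14 (SE 0.16, limma with Benjamini-Hochberg over 418 names, adjusted p = 0.714). Its 95% interval ran from 0.722-fold to 1.13-fold.

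mmu-miR-301a-3p, best known from studies of tumours, was found at a few RPM. It stood at 1.63, 1.62 and 1.39 RPM in control replicates 1, 2 and 3. It stood at 1.07, 3.49 and 2.00 RPM in TGF-beta replicates 1, 2 and 3. The control libraries were close to each other, whereas the treated ones spread to both sides of them. These values rest on 44 reads in all control libraries and 61 in all TGF-beta libraries, with exact Poisson intervals of 31.97 to 59.1 and 46.7 to 78.4 reads that cover counting error only. The log2 fold change was 0.25 (SE 0.28, 95% interval −0.33 to 0.83, limma adjusted p = 0.714). It was −0.028 when TGF-beta replicate 2 was left out and 0.53 without TGF-beta replicate 1. On the recovered reads, with no pseudocount of 1 RPM, edgeR gave 0.56 (adjusted p = 0.642) and DESeq2 0.55 (SE 0.49).

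mmu-miR-130b-3p and mmu-miR-301b-3p, from the paired hairpins on chromosome 16, were under the level tested, which was at least 1 RPM in at least 3 libraries. mmu-miR-130b-3p, known in mice and humans for repressing lipid and energy regulators, gave 8, 7 and 2 reads in control and 3, 10 and 5 reads in treated libraries. Its groups overlapped over most of their range. mmu-miR-301b-3p gave 1, 0 and 5 reads in control and 0, 0 and 6 reads in treated libraries, so that 3 of 6 libraries were at 0 and 12 reads were found in all. No difference in either was detectable at this depth. When no filter was used, limma gave log2 fold changes of 0.043 (SE 0.25, adjusted p = 0.992) for miR-130b-3p and −0.0069 (SE 0.19, adjusted p = 0.9997) for miR-301b-3p. The 1 RPM added before the log is close to or above every level of both names. It draws these estimates and their SEs toward 0, so a small SE here does not mean a well measured change.

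**Figure D1:**
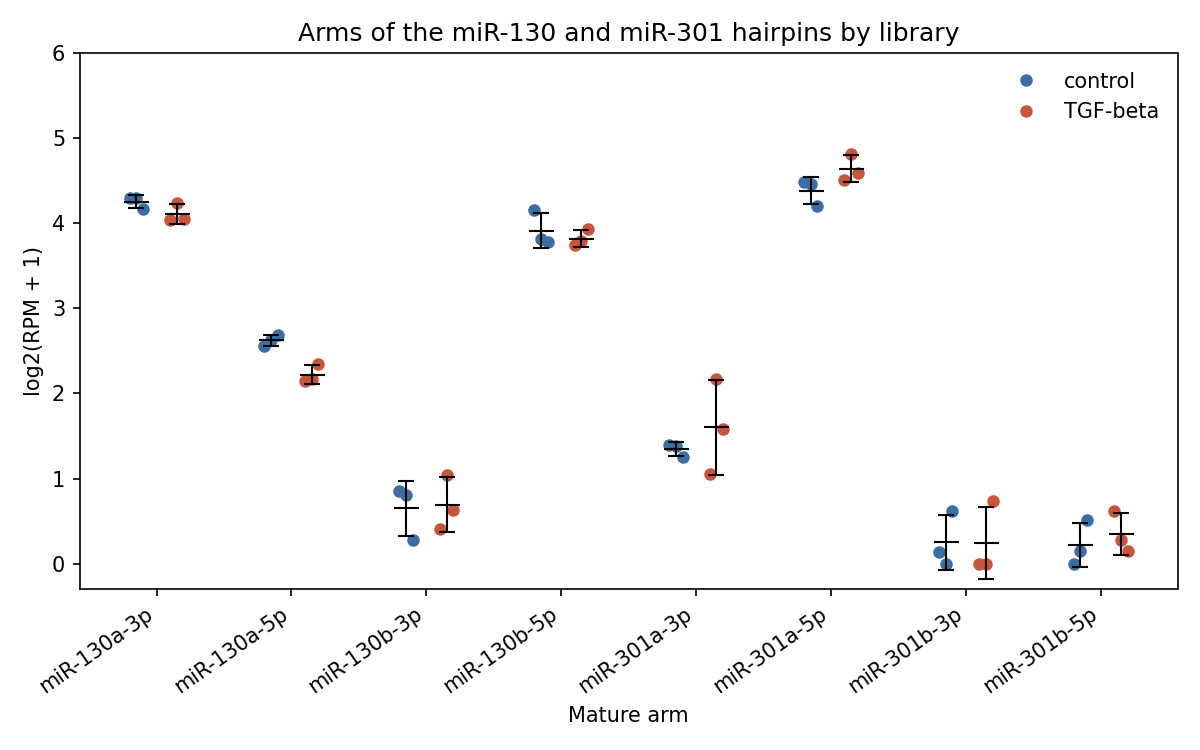
Level of the 8 arms of the member hairpins as log2(RPM + 1), with 1 point per library, control in blue and TGF-beta in red; the black bars are the mean and SD of 3 libraries. miR-130a-3p, miR-130b-5p and miR-301a-5p are the high arms, and the control and treated points separate for miR-130a-5p and miR-301a-5p only.

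Thus 0 of the 2 tested members passed the threshold of limma, where 33 of 418 tested names did (7.89%). At an unadjusted limma p under 0.05 the count of members was also 0, where 64 of 418 names (15.3%) were under it, with values of 0.364 for miR-130a-3p and 0.369 for miR-301a-3p. On the recovered reads, the quasi-likelihood test of edgeR called 29 names and neither member, with a log2 fold change of −0.084 for miR-130a-3p (adjusted p = 0.889). DESeq2 called 29 names as well and gave miR-130a-3p a log2 fold change of −0.098 (adjusted p = 0.910). It left the adjusted p of miR-301a-3p undefined. The 2 tested members had log2 fold changes of opposite sign, and the median over all 418 tested names was −0.049. Among the 55 tested names with a mean of 10 to 30 RPM, the range in which miR-130a-3p lies, 4 were called (7.27%), and the smallest absolute log2 fold change among them was 0.56. Among the 167 with a mean of 1 to 10 RPM, the range of miR-301a-3p, 7 were called (4.19%), from an absolute log2 fold change of 0.62 upwards. Groups that do not overlap were found for 0 of the 2 tested members, against 89 of 418 names (21.3%).

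The make-up of the family was compared within each library, where scaling plays no part. miR-130a-3p took 88.5% ± 0.46 of the family's reads in control and 84.8% ± 6.23 after treatment (mean ± SD, n = 3 each). miR-301a-3p followed with 7.55% ± 0.25 and 10.9% ± 4.60. In control libraries its share stayed between 7.26% and 7.69%, and in treated libraries it ran from 6.37% to 15.6%. miR-130b-3p took 2.85% ± 1.51 and 3.20% ± 1.42, and miR-301b-3p 1.09% ± 1.49 and 1.18% ± 2.05. The order of mean levels in both groups was miR-130a-3p, miR-301a-3p, miR-130b-3p and miR-301b-3p. miR-130b-3p and miR-301b-3p, the last neighbours in that order, changed places in control replicate 3 and TGF-beta replicate 3, where miR-301b-3p had more reads.

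All 6 pairs of members were compared by the log2 ratio of their levels, with 1 RPM added to each level. For miR-301a-3p, miR-130b-3p and miR-301b-3p the added 1 RPM is close to or above the level itself. These ratios therefore lie nearer 0 than ratios of the levels alone. The treated minus control differences lay between −0.40, for miR-130a-3p over miR-301a-3p, and 0.26, for miR-301a-3p over miR-301b-3p. That of miR-130a-3p over miR-301a-3p went from 2.91 ± 0.0055 in control to 2.51 ± 0.46 after treatment (mean ± SD, n = 3 each). The control values of this ratio were almost equal, and the treated values ran from 2.07 to 2.99 and enclosed them. The control values rest on 16, 15 and 13 reads of miR-301a-3p in replicates 1, 2 and 3. Counting error at such numbers is wider than their spread, which the added 1 RPM also narrows. Leaving out TGF-beta replicate 2 gave a difference of −0.18, and leaving out TGF-beta replicate 1 gave −0.64. The smallest two-sided exact permutation p over the 6 pairs was 0.3, with Benjamini-Hochberg adjusted values of 0.8 to 1. With 3 against 3 libraries no value can go below 0.1, so these tests could not reach the threshold.

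**Figure D2:**
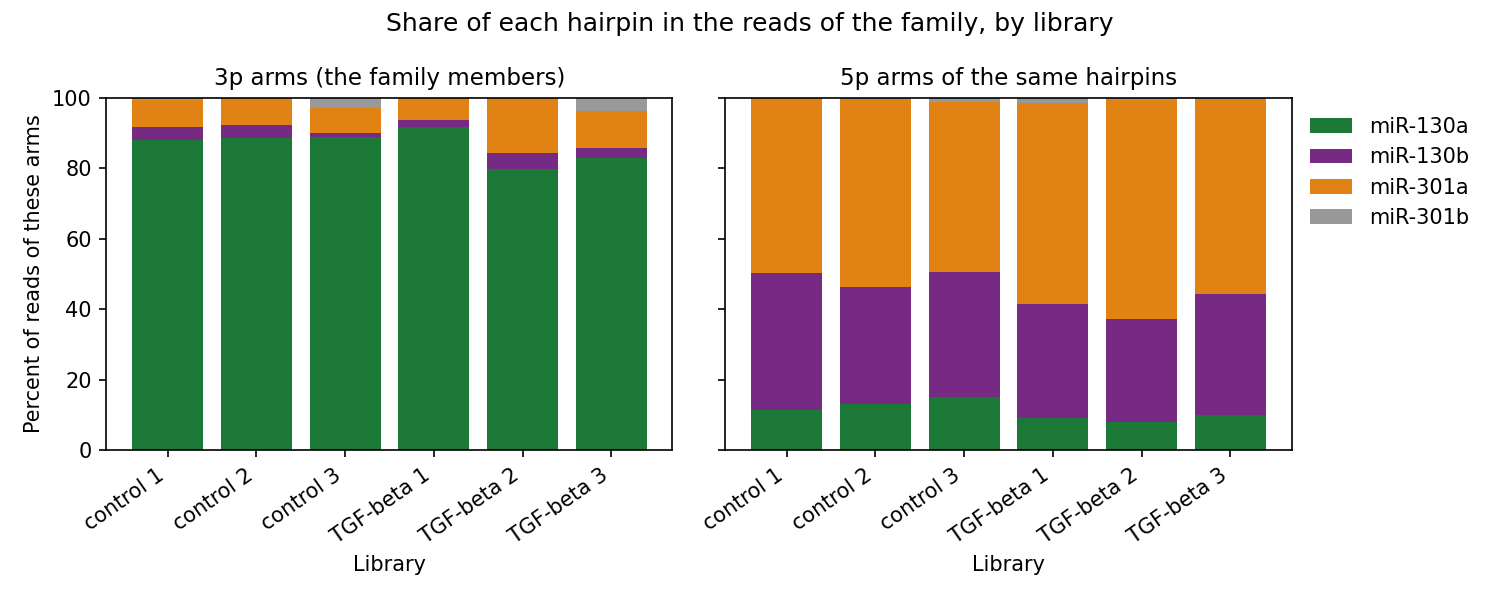
Share of each hairpin in the reads of the 3p arms (left) and of the 5p arms (right), in percent, with 1 stacked bar per library. On the left miR-130a takes 79.7% to 91.7%, and on the right miR-301a takes the largest share, from 48.4% to 62.2%.

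The 5p arms of these hairpins do not carry the family seed, yet together they gave more reads than the members. They summed to 39.5 ± 3.58 RPM in control and 41.1 ± 2.82 RPM after treatment (mean ± SD, n = 3 each). The members took 34.2% ± 1.04 of the reads of the hairpins in control and 31.9% ± 1.78 in treated libraries, and never more than 34.8%. The excess came from the hairpins of miR-301a and miR-130b. Only 7.20% ± 0.16 of the miR-301a reads in control and 8.01% ± 3.34 in treated libraries were of the 3p arm. For miR-130b the share of the 3p arm was 3.92% ± 2.00 and 4.64% ± 2.66. miR-130a was the other way round, with 77.7% ± 1.81 of its reads on the 3p arm in control and 81.5% ± 2.30 in treated libraries. These are shares of reads, which were not calibrated against known amounts of each strand. The hairpin of miR-301b gave 12 reads of its 3p arm and 13 of its 5p arm over all libraries.

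For comparison, 302 hairpins had both arms listed, and 130 of these had an arm with a mean of at least 10 RPM. Of the 130, 59 (45.4%) had more 3p than 5p reads. On the scale of log2((3p + 1)/(5p + 1)), miR-130a stood at 1.75, with 84 of the 130 hairpins lower. miR-301a stood at −3.00, with 56 lower, and miR-130b at −3.18, with 54 lower.

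**Figure D3:**
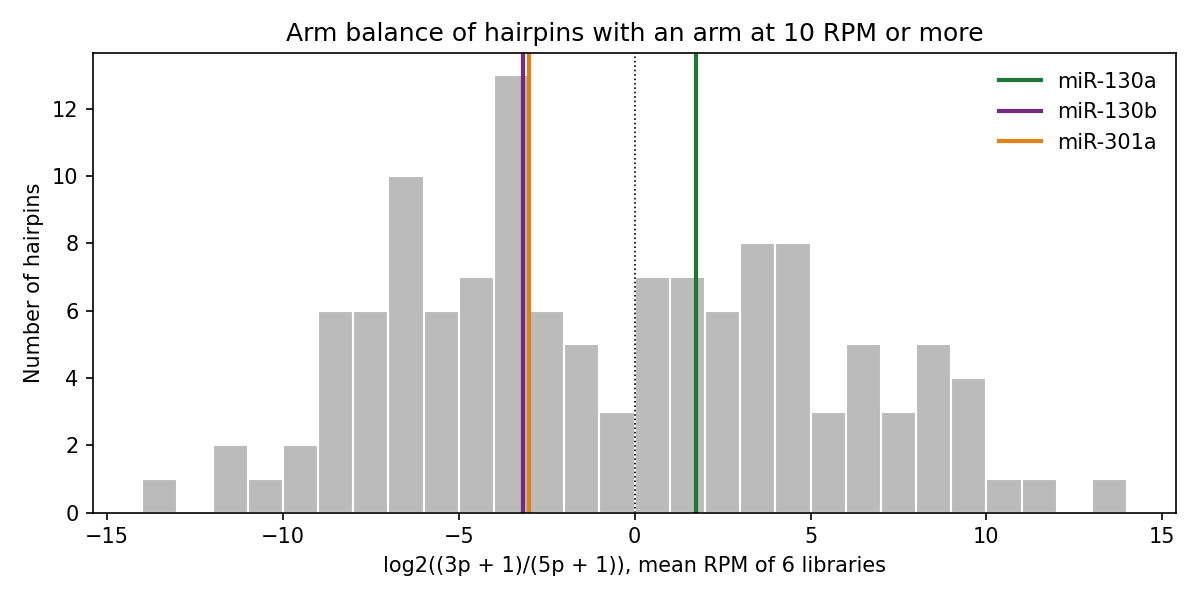
Number of hairpins by log2((3p + 1)/(5p + 1)) of the mean RPM of 6 libraries, for the 130 hairpins with an arm at 10 RPM or more; coloured lines mark the family hairpins that reach this level, and the dotted line marks equal arms. miR-130a lies at 1.75, miR-301a at −3.00 and miR-130b at −3.18.

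Of the 8 arms, the groups did not overlap for miR-130a-5p and miR-301a-5p only. Those were 2 of the 3 tested 5p arms, and neither tested member did so, beside 21.3% of all tested names. miR-130a-5p stood at 4.89, 5.18 and 5.44 RPM in control replicates 1, 2 and 3 and at 3.44, 3.49 and 4.10 RPM in TGF-beta replicates 1, 2 and 3. All treated libraries lay below all control libraries. The log2 fold change was −0.40 (SE 0.19, limma adjusted p = 0.318), and the unadjusted p was 0.0502. In the authors' deposited table its unadjusted p-value was 0.00498, one of 80 among 1065 names under 0.05 (7.51%), and the lowest of the 8 arms.

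miR-301a-5p was the most abundant strand of the 4 hairpins and ranked 198 of 1065 names. It stood at 21.4, 21.03 and 17.4 RPM in control replicates 1, 2 and 3 and at 21.8, 27.2 and 23.1 RPM in TGF-beta replicates 1, 2 and 3. The groups did not overlap, though TGF-beta replicate 1 lay just above control replicate 1. The log2 fold change was 0.26 (SE 0.16, 95% interval −0.078 to 0.59, limma adjusted p = 0.461). miR-130b-5p had 16.8, 13.05 and 12.7 RPM in control and 12.3, 12.8 and 14.3 RPM in treated libraries, with overlapping groups, and limma put its log2 fold change at −0.094 (SE 0.17, adjusted p = 0.842). In all, 0 of the 3 tested 5p arms passed, beside 7.89% of all tested names, and the groups did not overlap for 2 of 3, beside 21.3%. miR-301b-5p gave 13 reads over the 6 libraries and was under the level tested.

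Within the 5p reads of the family, the share of miR-301a-5p was 50.5% ± 2.63 in control and 58.3% ± 3.51 in treated libraries, and that of miR-130a-5p was 13.2% ± 1.89 and 8.96% ± 0.94 (SD, n = 3 each). Control and treated shares did not overlap for either arm. Shares of 1 sum are tied to each other, and these were looked at after the levels were seen, so no test was made.

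The balance of the arms was to be tested for a hairpin where both arms had a mean of at least 10 RPM, which 0 of the 4 hairpins met. At a lower level of 1 RPM, chosen after the values were seen, 2 hairpins could be compared. The log2 ratio of 3p to 5p, with 1 RPM added to each arm, was 1.63 ± 0.13 in control and 1.89 ± 0.19 in treated libraries for miR-130a (SD, n = 3 each). That was a difference of 0.26 with a two-sided exact permutation p of 0.2 (adjusted 0.4). The difference was 0.11 with a pseudocount of 5 RPM and 0.16 without TGF-beta replicate 2. For miR-301a it was −3.04 ± 0.079 and −3.04 ± 0.41, with an exact permutation p of 1.

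**Figure D4:**
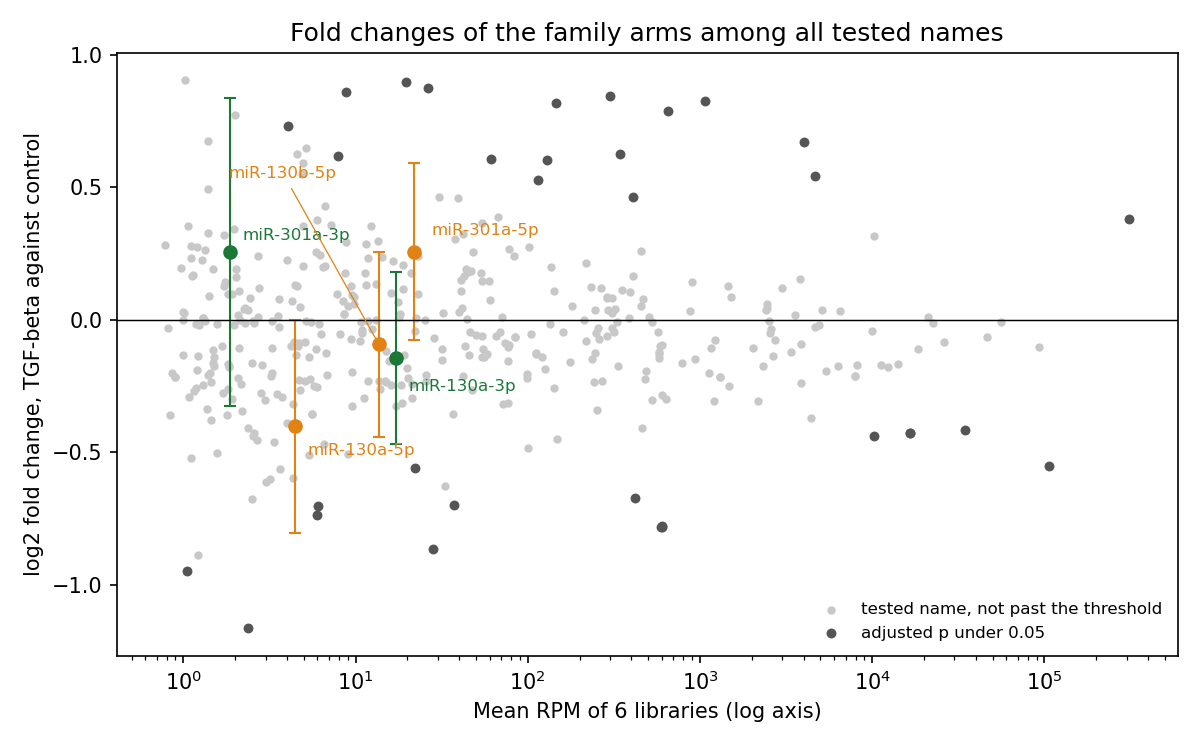
Log2 fold change of TGF-beta against control by mean RPM (log axis) for the 418 tested names; dark points passed limma at an adjusted p under 0.05, and family arms are shown with 95% intervals, members in green and 5p arms in orange. Each of the 5 intervals reaches 0, and no family arm is among the 33 names that passed.

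The sign of a small fold change depended on how the libraries were scaled. miR-21a-5p, the most abundant name, took more of the reads in treated libraries. When it was dropped and each library was scaled again, the median over all names shifted by 0.16. miR-130a-3p then stood at 0.017 in place of −0.14. Relative to the median of all names it was at −0.095 before and −0.089 after that change, and miR-301a-3p at 0.30 and 0.29.

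Seeds were then compared over the 865 names (81.2%) that matched a mature sequence in RefSeq, which held 85.9% to 89.2% of the reads of a library. The seed AGUGCAA, summed over the 3 matched members, ranked 139 of 750 seeds. RefSeq has 7 mature mouse miRNAs with this seed, not counting miR-301b-3p, for which no mature entry was found. Of the 7, 4 were not among the members taken by name: miR-6341, miR-721, miR-6389 and miR-130c. They share the family seed but were not among the names analysed here. Names with a seed shifted by 1 base were found by searching the first 9 bases for AGUGCA or GUGCAA, letters that overlap each other inside the family seed. This gave 6 names, of which 0 passed limma, beside 7.89% of all tested names. The groups did not overlap for 2, miR-19a-3p and miR-350-5p, beside 21.3%. Both gaps were narrow. The nearest control and treated libraries were at 2.667 and 2.662 RPM for miR-19a-3p. For miR-350-5p they were at 8.97 and 9.02 RPM. The 6 names were miR-19a-3p, miR-19b-3p, miR-148a-3p, miR-148b-3p, miR-152-3p and miR-350-5p. Sequences of both kinds of shift are shown beside the family seed, again with bases 2 to 8 in capitals.
miR-19b-3p: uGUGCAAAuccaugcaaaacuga
miR-148a-3p: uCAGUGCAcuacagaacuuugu

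miR-19a-3p and miR-19b-3p, members of a growth-promoting cluster, were about as scarce as the family. Their seed GUGCAAA ranked 135 of 750. miR-19b-3p stood at 17.6 ± 3.73 RPM in control and 20.2 ± 2.07 RPM after treatment (mean ± SD, n = 3 each), and limma put its log2 fold change at 0.21 (SE 0.17, adjusted p = 0.642). miR-19a-3p stood at 3.22 ± 0.75 and 2.13 ± 0.82 RPM, and its log2 fold change was −0.45 (SE 0.25, limma adjusted p = 0.411). The seed CAGUGCA of miR-148a-3p, miR-148b-3p and miR-152-3p ranked 9 of 750 at 8667 ± 985 RPM in control and 8899 ± 776 RPM in treated libraries. miR-350-5p, which also holds AGUGCA, was scarce, at 7.82 ± 1.18 RPM in control and 9.75 ± 0.85 RPM after treatment, and limma put its log2 fold change at 0.29 (SE 0.18, adjusted p = 0.430). miR-148a-3p alone had 4911 ± 723 RPM in control and 4889 ± 1168 RPM in treated libraries, and limma put its log2 fold change at −0.021 (SE 0.15, adjusted p = 0.996).

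Names with the most similar profile were sought by the root mean square difference of centred log2(RPM + 1) values over 6 libraries, among the tested names whose mean reached 10 RPM. For miR-130a-3p these were miR-181b-5p (0.039), miR-98-5p (0.057) and let-7b-5p (0.057), where the median over 240 names was 0.20. For miR-301a-3p they were miR-421-3p (0.22), its own 5p arm miR-301a-5p (0.24) and miR-450b-3p (0.25), where the median over 241 names was 0.40. The profile of miR-301a-3p rests on 10 to 33 reads per library, the highest in TGF-beta replicate 2. Counting error therefore weighs on its nearest names, and shared regulation was not tested.

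Other miRNAs described as acting on receptors of TGF-beta, on Smads or in the response to TGF-beta were taken as a list of 26 names, written with earlier results of these data known, so its direction is no independent evidence. Of these, 22 were listed and 20 tested. With TGF-beta 5 of the 20 rose, against 17 of 418 names (4.07%), and 0 fell, against 16 of 418 (3.83%). The median log2 fold change of the list was 0.081, beside −0.049 over all names. The 5 were miR-21a-5p (0.38), which represses Smad7, miR-155-5p (0.84), an inflammation-linked miRNA, miR-199a-5p (0.67), linked to fibrosis, and miR-17-5p (0.60) and miR-20a-5p (0.62), which repress Tgfbr2. The abundant members let-7c-5p, let-7b-5p and miR-27a-3p had log2 fold changes of −0.082, −0.18 and −0.12 and did not pass. The lowest of the 5 by level, miR-17-5p, stood at 101.5 ± 10.6 RPM in control, above every member of the miR-130 and miR-301 family.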

How the data were processed

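Small RNA of 3 control and 3 TGF-beta libraries was counted per miRNA name. The authors deposited 1 table with values headed TPM, which are RPM: each library sums to 1000000 and has no correction for length. Reads were placed on mm9, as the submitters' processing notes state, and the aligner, counter and annotation were not given in the sources used here. An unadjusted p-value per name was deposited by the authors with no test named. Their RPM means per group were not used.

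Read counts were recovered from the step of each library, and 100% of values were whole reads to within 0.01 read. limma 3.58.1 in R 4.3.3 was run with an intensity trend on log2(RPM + 1) for the 418 names that reached 1 RPM in 3 or more libraries, with Benjamini-Hochberg adjustment over all of them and a two-sided threshold of 0.05. The scale understates the change of low names. edgeR 4.0.16 and DESeq2 1.42.0 were run on the recovered reads as alternatives. Pair and arm ratios were tested by two-sided exact permutation with SciPy 1.17.1. The limma step was tested on simulated data. Pairs of replicates differed beyond sampling noise (chi-square divided by degrees of freedom, 75.1 to 324), so all libraries were counted.

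The members and lists were chosen with earlier results of these data known. The text names the members, their 5p arms, names that share or shift the seed, up to 4 abundant and all called members of the receptor list, and the 3 nearest profiles of each tested member. miR-148a-3p, miR-148b-3p, miR-152-3p and miR-350-5p were added after values were seen. Sequences are from RefSeq (GRCm38.p6) and gene positions from GENCODE M21 (GRCm38), with no conversion from mm9. Alternatives were other pseudocounts, filters, scalings and tests, each library left out, and the replicate number as a block.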

Additional observations from a re-analysis of the deposited data

How the results depend on the processing

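No tested arm of the family passed the threshold under any alternative run. The count of called names, 33, was 19 without a filter, 20 when 10 RPM was asked for in 3 libraries, 10 with quantile normalization and 16 without an intensity trend. It was 18 to 36 with a library left out, with 18 without TGF-beta replicate 2 and 21 without control replicate 1. The split of 17 higher and 16 lower became 25 and 7 once miR-21a-5p was dropped, 18 and 10 with median scaling, and 19 and 10 with edgeR. The log2 fold change of miR-130a-3p turned to 0.017 and that of miR-130b-5p to 0.067 when miR-21a-5p was dropped, and the family's difference went from −1.09 to 1.82 RPM, as these names were rescaled with the rest. With libraries left out, the ranges were −0.21 to −0.11 for miR-130a-3p, −0.028 to 0.53 for miR-301a-3p (lowest without TGF-beta replicate 2; edgeR gave 0.56), −0.16 to 0.027 for miR-130b-5p (highest without control replicate 1) and −2.64 to 0.15 RPM for the family. miR-130a-5p ran from −0.47 to −0.23 over its 16 alternatives and miR-301a-5p from 0.17 to 0.43 over 17. The treated minus control differences in the log2 ratios over miR-301b-3p changed sign with libraries left out, from −0.36 to 0.14 for miR-130a-3p, −0.32 to 0.32 for miR-130b-3p and −0.14 to 0.52 for miR-301a-3p. The other differences kept their sign, at −0.64 to −0.18 for miR-130a-3p over miR-301a-3p, −0.30 to −0.045 for miR-130a-3p over miR-130b-3p and −0.35 to −0.10 for miR-130b-3p over miR-301a-3p. The difference in the arm ratio was 0.11 to 0.35 for miR-130a over 8 alternatives. That of miR-301a, −0.0019, was 0.031 with a pseudocount of 0.5 RPM and −0.20 to 0.21 with libraries left out. The cause of these turns was not tested.

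Deviations of same-numbered libraries correlated at −0.084 to −0.068, so the replicate numbers were not taken to pair them. The replicate block called 32 names, left miR-130a-3p at −0.14 (limma adjusted p = 0.823) and miR-301a-3p at 0.25 (limma adjusted p = 0.810) and changed no other call of the family. Depth limits miR-130b-3p and miR-301b-3p, with 35 and 12 reads in all.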
